A study of Mus musculus with 12 samples.

Results

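Lymphoid priming and lymphocyte genes were followed in primitive mouse blood progenitors that had been given a leukaemia fusion gene. The genes are 39 in number and were taken by name: receptors, recombination enzymes and transcription factors that open the lymphoid programme, and genes of B, T and natural killer cells. Of these, 36 had a probe set carrying their symbol alone, out of 18193 such genes on the array, and each was read from whichever of its probe sets was brightest on average across the 12 arrays. Il2rg, Lck and Tcf7 had none and were not analysed here. A gene was tested where that mean lay above 5.10 log2 units, the 40th percentile of all probe-set means, and 26 of the 36 did, among 12918 genes tested. The choice rested on gene names and was made with earlier results of these data known.

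Marrow cells of normal mice were sorted for c-Kit and Sca-1 and for the absence of lineage markers and Flt3, cultured for 24 h with serum, stem cell factor and interleukin 6, exposed to retrovirus for 4 h and kept for a further 20 h. The productively infected, GFP-positive cells were then sorted, and 1 Affymetrix array was run per sort. INV16 (4 arrays, replicates 1 to 4) carried the inv(16) fusion, which joins CBFB, the partner subunit of the RUNX transcription factors, to the smooth muscle myosin MYH11. ACD mutant (3 arrays, replicates 1 to 3) carried the same fusion without its assembly competent domain, which the submitters describe as non-leukemogenic. MIB control (5 arrays, replicates 3 to 7) carried the empty vector. All groups thus shared the sort, the culture and a retroviral infection, and the level of the fusion was not assessed here.

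Lymphoid development starts in multipotent progenitors that switch on a few lymphoid genes at a low level before they commit, a state called lymphoid priming. Ikaros, E2A and Foxo1 prepare that state. Interleukin 7 signalling with Ebf1 and Pax5 then leads to B cells, Notch1 with Gata3 and Bcl11b leads to T cells, and the recombinase and terminal transferase build the antigen receptors. The sort used here removes Flt3-positive cells, among which most lymphoid-primed progenitors lie. RUNX factors and CBFB are themselves needed for lymphoid development in mice.

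INV16 replicate 4 stood apart, and it is given apart. Its correlation with the other arrays across probe sets was 0.895 to 0.917, and the lowest among the other 11 was 0.985. Summed signal (linear scale) of 11 mast cell and basophil genes was 87700 there, against 13800 to 20000 on the other 11 arrays, and that of 11 stem cell and primitive progenitor genes, all of which passed the filter, was 8000 against 13900 to 20200. The other 11 arrays also differed in the spike-in controls BioC and BioB, and the labels name no batch. The difference BioC minus BioB was 1.07 to 1.21 log2 in INV16 replicates 1 to 3 and MIB control replicates 3 to 5, called batch A, and between -0.11 and -0.01 in the ACD mutant arrays and MIB control replicates 6 and 7, called batch B. INV16 replicate 4, at 0.07, fell with batch B, and without it no batch held both INV16 and ACD mutant arrays. Batch B was itself uneven in BioB. That control measured 7.49, 7.42 and 7.13 in ACD mutant replicates 1 to 3, but 8.57 and 8.76 in MIB control replicates 6 and 7. In batch A it measured 8.38 to 8.89. RNA integrity was read from Gapdh, as the 3' probe set minus the 5' one, and gave 3.64 log2 in INV16 replicate 4 and 3.17 in ACD mutant replicate 1, against 1.10 to 1.98 on the other 10 arrays.

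Of the lymphoid genes 5 passed the test in a comparison, and their medians lay near those of all genes. In INV16 against MIB control the 26 tested members had a median log2 fold change of 0.05, beside -0.03 over all 12918 genes. The limma test on 11 arrays, with INV16 replicate 4 left out and p-values adjusted over all genes, called 4 of the 26: Dntt and Gata3 rose, and Nkg7 and Cd72 fell. Of all genes tested 1.7% were called in this comparison, 0.627% higher and 1.07% lower. At an unadjusted p under 0.05 there were 10 of 26 members, against 15.8% of all genes. In the ACD mutant against MIB control the median was 0.05, beside 0.01 over all genes, and Notch1 rose while Cd72 fell, 2 of 26, with 1.7% of all genes called, 0.991% higher and 0.712% lower, and 6 of 26 at an unadjusted p under 0.05, against 19.5% of all genes. In INV16 against the ACD mutant the median was -0.01, beside -0.02, and limma called 0 of 26, with 6 of 26 at an unadjusted p under 0.05, against 2.07% of all genes called and 19% at an unadjusted p under 0.05. With all 12 arrays limma called 0 of 26 in each of the 3 comparisons, with 8, 3 and 4 members at an unadjusted p under 0.05 (15.1%, 6.91% and 12.4% of all genes), and called 0.155%, 0% and 0.0387% of all genes. The INV16 and ACD mutant comparisons with MIB control share the control arrays. In RNA from pooled cells, fewer cells of a type and less RNA per cell cannot be told apart.

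**Figure D1:**
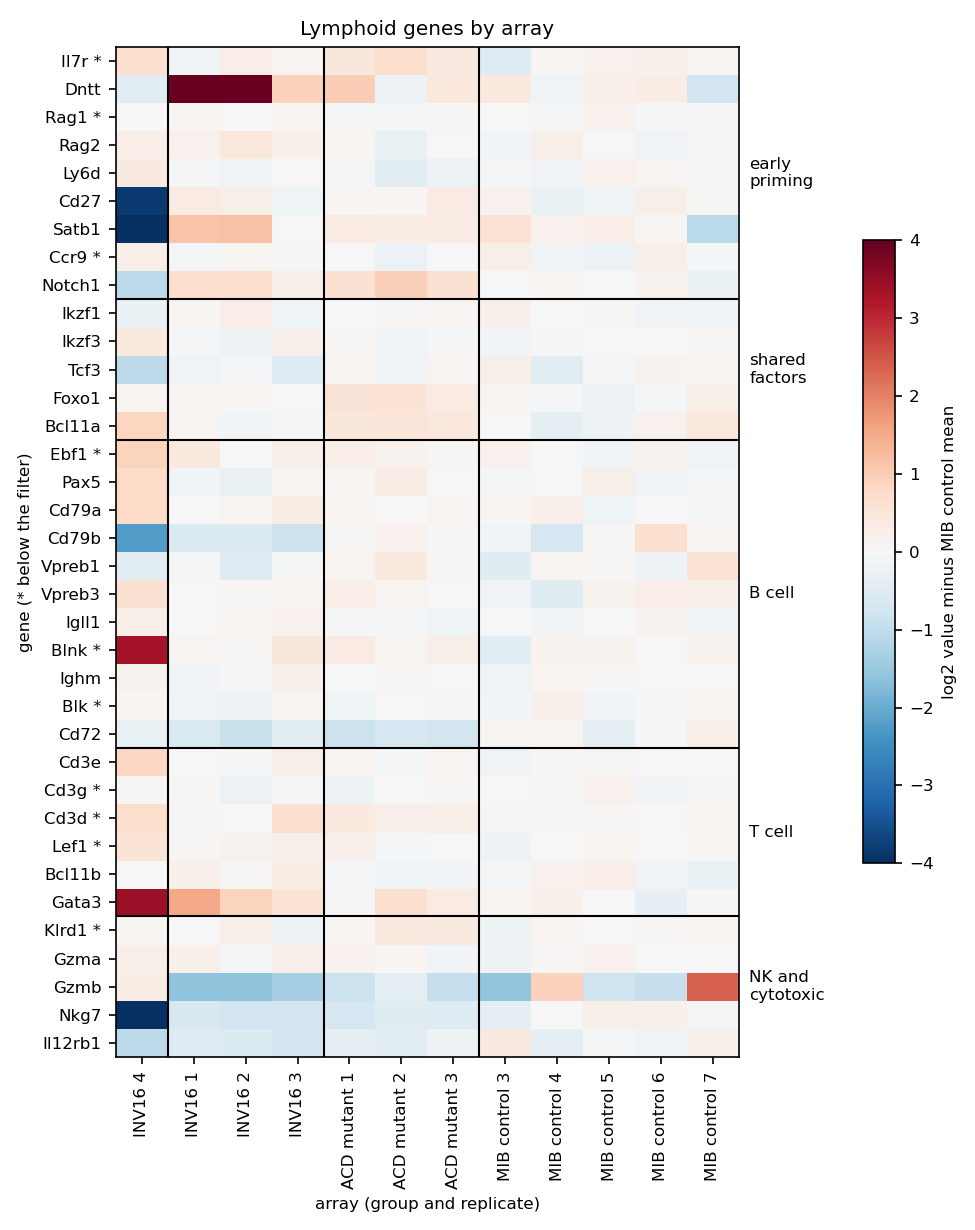
Log2 value of each of the 36 lymphoid genes minus its MIB control mean, by array, with red above and blue below that mean, colours ending at 4 log2 units, and rows grouped by role. Dntt stands out on INV16 replicates 1 and 2, and Cd27, Satb1 and Nkg7 are far lower and Blnk and Gata3 far higher on INV16 replicate 4.

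Dntt encodes terminal deoxynucleotidyl transferase, which adds untemplated nucleotides where antigen receptor gene segments are joined, and it is among the first genes switched on in lymphoid priming. It measured 11.09, 10.81 and 7.75 log2 units in INV16 replicates 1 to 3. In ACD mutant arrays it measured 7.82, 6.62 and 7.27, and in MIB control 7.21, 6.72, 7.04, 7.15 and 6.08. The 3 INV16 arrays thus lay above all 5 MIB control arrays, but INV16 replicate 3 was far lower than the other two and lay below ACD mutant replicate 1. The difference from MIB control was 3.04 log2 (SE 0.59, limma adjusted p = 0.0227), an 8.24-fold rise and the highest log2 fold change of the 12918 genes. The call was lost without INV16 replicate 1 (2.44, adjusted p = 0.147) or replicate 2 (2.58, adjusted p = 0.109), the highest arrays. Over all genes these fits called 29 and 66, against 219 on the 11 arrays. Leaving out INV16 replicate 3 gave 4.11 (adjusted p = 0.000173). The call was also lost with only the 2 groups compared (3.04, adjusted p = 0.0571) and with the replicate block (1.62, adjusted p = 0.497). Within batch A, which holds all 3 INV16 arrays, the difference was 2.89 (adjusted p = 0.15), and with a block for batch it was 2.89 (adjusted p = 0.0642). On INV16 replicate 4 Dntt measured 6.43, within the MIB control range, and with that array included the difference was 2.18 (SE 0.83, adjusted p = 0.301).

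INV16 was also 2.64 log2 above the ACD mutant in Dntt (SE 0.66, adjusted p = 0.057, 95% interval 1.21 to 4.08), the highest log2 fold change of all genes in that comparison, which did not pass the test. It passed without INV16 replicate 3 (3.71, adjusted p = 0.00139) and without MIB control replicate 7 (2.64, adjusted p = 0.0426). Without INV16 replicate 1 it was 2.04 (adjusted p = 0.173), and with all 12 arrays it was 1.78 (adjusted p = 0.46). INV16 replicates 1 to 3 and the ACD mutant arrays share no spike-in batch, so this comparison crosses batches. Between ACD mutant and MIB control the difference was 0.40 (SE 0.59, adjusted p = 0.784), with a 95% interval of -0.88 to 1.68.

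Markers of other cells also differed between arrays. The mean log2 value of the 11 stem cell and primitive progenitor genes was 10.12, 10.03 and 9.45 in INV16 replicates 1 to 3, against 9.78, 10.07 and 9.98 in ACD mutant arrays and 9.49 to 9.87 in MIB control, and 7.65 on INV16 replicate 4. INV16 replicate 3 was thus the lowest of the 11 arrays in this mean and the lowest INV16 array of the 3 in Dntt. The other groups went the other way. MIB control replicate 7 was the highest control array in this mean (9.87) and the lowest in Dntt (6.08). ACD mutant replicate 2 was the highest ACD mutant array in this mean (10.07) and the lowest in Dntt (6.62). In INV16 against MIB control the stem cell list had a median of 0.12 log2, with values from -0.71 to 1.48. Of its 11 genes 9 were not called and 2 were called higher, against 0.627% of all genes. An unadjusted limma p under 0.05 was found for 5 of 11, against 15.8% of all genes. Procr (1.48, SE 0.30, limma adjusted p = 0.0252) and Esam (0.95, SE 0.22, adjusted p = 0.0477), surface proteins of stem cells, rose in that comparison, also with a block for batch (adjusted p = 0.0232 and 0.0422). Slamf1, another such protein, rose in the ACD mutant (1.20, SE 0.25, adjusted p = 0.0378), but not with that block (0.72, adjusted p = 0.153). The 10 erythroid and megakaryocyte genes, of which Hba-a1 and Car1 were below the filter, summed to 2230 to 2300 in INV16, 5130 to 6480 in ACD mutant arrays and 1930 to 8580 in MIB control. All 8 tested were lower in INV16 than in the ACD mutant at an unadjusted limma p under 0.05, against 19% of all genes. Of these 1 was called, Vwf (-2.23, SE 0.53, limma adjusted p = 0.0485), against 2.07% of all genes, and it gave -0.54 with a block for batch (adjusted p = 0.71). This comparison crosses the spike-in batches. The list's mean log2 value was 6.60, 6.85 and 6.75 in MIB control replicates 3 to 5 (batch A). It was 7.19 and 8.16 in replicates 6 and 7 (batch B). It was 6.74 to 6.89 in INV16 replicates 1 to 3 and 7.69 to 7.95 in ACD mutant arrays. The part of stem cells, erythroid cells and megakaryocytes in the lymphoid results was not tested. With all 12 arrays all of these calls and those of the mast cell genes were lost.

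Dntt has 3 probe sets, and the set used here carries the suffix x_at, which marks probes that can pick up other transcripts. The other sets showed the same arrays high. The a_at set measured 9.41, 9.71 and 6.03 in INV16 replicates 1 to 3, against 6.01, 5.47 and 6.02 in ACD mutant arrays and 5.11 to 6.02 in MIB control. Each probe set was also tested alone, an alternative chosen after seeing the data, and the a_at set was 2.78 log2 above MIB control in INV16 (SE 0.62, adjusted p = 0.0488 over 22694 probe sets, of which 1.39% were called). The dim at set lay below the filter and measured 5.23, 5.30 and 4.18 in INV16 replicates 1 to 3, against 3.91 to 4.14 in ACD mutant arrays and 3.82 to 4.16 in MIB control.

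**Figure D2:**
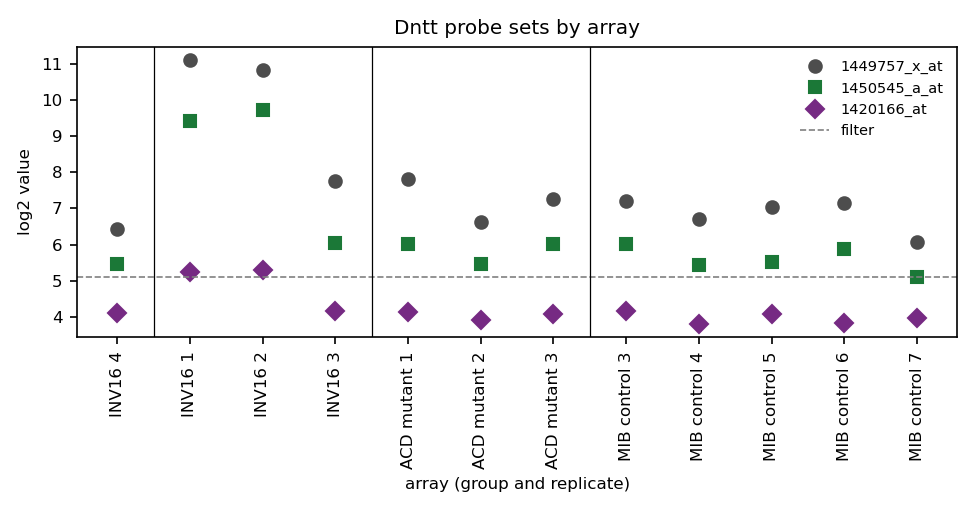
Log2 values of the 3 Dntt probe sets on each array, with the filter as a dashed line. All 3 sets are highest on INV16 replicates 1 and 2, while INV16 replicate 3 lies near the ACD mutant and MIB control arrays.

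Of the recombinase genes, the partners of Dntt in receptor assembly, Rag1 was below the filter and not tested, and Rag2 was not called. Rag1 measured 3.44, 3.35 and 3.46 in INV16 replicates 1 to 3, against 3.28, 3.28 and 3.42 in ACD mutant arrays and 3.30 to 3.55 in MIB control. Its partner subunit Rag2 measured 5.46 to 5.73 in INV16, against 5.00 to 5.37 in ACD mutant arrays and 5.17 to 5.53 in MIB control. For Rag2 the INV16 arrays lay above all ACD mutant arrays (0.35 log2, SE 0.13, limma adjusted p = 0.183) and overlapped with MIB control (0.26, SE 0.12, adjusted p = 0.31). For Rag1 the groups overlapped. Among 8 tested genes of V(D)J joining and DNA end joining, limma called 0 of 8 in INV16 or the ACD mutant against MIB control (1 and 4 at an unadjusted p under 0.05), and Prkdc, the catalytic subunit of the DNA-dependent protein kinase, was lower in INV16 than in the ACD mutant (8.73 ± 0.19 against 9.34 ± 0.08, SD, n = 3 each; -0.61, SE 0.14, limma adjusted p = 0.0411). That call was lost with all 12 arrays (adjusted p = 0.151) and when batch was a block (-0.48, adjusted p = 0.394); INV16 and ACD mutant arrays lie in different spike-in batches, and with that block 0 genes of 12918 were called between them.

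Among the receptors of early priming, Il7r, the interleukin 7 receptor chain, lay below the filter. It measured 4.29, 4.66 and 4.46 in INV16 replicates 1 to 3, against 4.85, 5.09 and 4.75 in ACD mutant arrays and 3.86, 4.46, 4.55, 4.60 and 4.48 in MIB control. The ACD mutant arrays lay above those of both other groups except INV16 replicate 4, at 5.06. Without the filter the ACD mutant was 0.51 log2 above MIB control (SE 0.16, adjusted p = 0.127). Ccr9, a chemokine receptor for homing to the thymus, was also below the filter, at 4.05 to 4.53 on the 11 arrays.

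Cd27, a receptor of the tumour necrosis factor family found on multipotent progenitors and lymphocytes, measured 9.25, 9.14 and 8.73 in INV16 replicates 1 to 3. It measured 8.996, 8.99 and 9.24 in ACD mutant arrays and 9.09, 8.61, 8.73, 9.15 and 8.97 in MIB control. The groups overlapped, and INV16 differed from MIB control by 0.13 (adjusted p = 0.73, 95% interval -0.19 to 0.46). Ly6d, a surface marker of lymphoid progenitors set towards B cells, measured 5.23 to 5.83 on the 11 arrays.

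Satb1, a chromatin organiser that favours lymphoid priming, was uneven in the same arrays as Dntt. It measured 9.75, 9.76 and 8.58 in INV16 replicates 1 to 3, against 8.94, 8.91 and 8.90 in ACD mutant arrays and 9.18, 8.76, 8.87, 8.67 and 7.51 in MIB control. INV16 replicates 1 and 2 were the highest and MIB control replicate 7 the lowest of the 11 arrays, and INV16 differed from MIB control by 0.76 (SE 0.33, adjusted p = 0.286). Its 3 further probe sets past the filter gave 0.93, 0.45 and 0.12.

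Notch1, the receptor whose signal sets T cell fate, rose in the ACD mutant. It measured 9.22, 9.19 and 8.76 in INV16 replicates 1 to 3, 9.15, 9.47 and 9.13 in ACD mutant arrays, and 8.55, 8.61, 8.52, 8.67 and 8.26 in MIB control. These arrays of both fusion groups lay above every MIB control array. The ACD mutant was 0.72 log2 above MIB control (SE 0.14, adjusted p = 0.0327), a 1.65-fold rise, and INV16 was 0.53 above it (SE 0.14, adjusted p = 0.0795), which did not pass except without INV16 replicate 3 (0.68, adjusted p = 0.0252), after quantile normalisation (0.58, adjusted p = 0.0393) or with averaged probe sets (0.50, adjusted p = 0.0329). INV16 and the ACD mutant differed by -0.19 (adjusted p = 0.545, 95% interval -0.52 to 0.14). The ACD mutant call was lost with the spike-in batch as block (0.78, adjusted p = 0.0744), within batch B (0.78, adjusted p = 0.0708), without ACD mutant replicate 1 (0.77, adjusted p = 0.123) or 2 (0.61, adjusted p = 0.189), and without MIB control replicate 5 (0.72, adjusted p = 0.0728). That call was also lost with all 12 arrays (0.72, adjusted p = 0.715), with the replicate block (0.48, adjusted p = 0.363) and with averaged probe sets (0.44, adjusted p = 0.0597). The other Notch1 probe set differed by only 0.16 between ACD mutant and MIB control (adjusted p = 0.538) and by 0.46 between INV16 and MIB control (adjusted p = 0.0967). INV16 replicate 4 measured 7.49, below all other arrays. Of 14 tested Notch pathway genes (other receptors, ligands, targets and cofactors), limma called 0 of 14 in each of the 3 comparisons (2, 2 and 4 at an unadjusted p under 0.05), with medians of -0.09, 0.03 and -0.15 log2.

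Of the 5 shared transcription factors, limma called 0 of 5 in each comparison (0, 2 and 2 at an unadjusted p under 0.05). Ikzf1, which encodes Ikaros, measured 11.87, 12.06 and 11.62 in INV16 replicates 1 to 3, against 11.76, 11.85 and 11.92 in ACD mutant arrays and 11.998, 11.77, 11.85, 11.69 and 11.66 in MIB control. The groups overlapped, with a difference of 0.06 log2 between INV16 and MIB control (95% interval -0.20 to 0.31). Its relative Ikzf3 (Aiolos) differed from MIB control by -0.02 in INV16, and Tcf3, which encodes the E proteins E12 and E47, by -0.25 (adjusted p = 0.444), with 0.04 in the ACD mutant.

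A second Ikzf1 probe set, singled out after its values were seen, behaved differently. It measured 7.29, 7.46 and 7.31 in INV16 replicates 1 to 3, against 6.57, 6.75 and 6.84 in ACD mutant arrays and 7.25, 7.10, 7.20, 7.24 and 7.14 in MIB control. All 3 ACD mutant arrays lay below the other arrays, including INV16 replicate 4 at 7.29 and the MIB control arrays of batch B. Those control arrays were higher in the spike-in BioB than the ACD mutant arrays. Tested alone, this set gave -0.47 for ACD mutant against MIB control (SE 0.10, limma adjusted p = 0.0407), where 1.69% of probe sets were called, and 0.63 for INV16 against ACD mutant (SE 0.11, adjusted p = 0.0172), where 1.27% were. These calls were kept in 5 and 7 of 11 fits that left out 1 array (adjusted p = 0.0376 to 0.208 and 0.017 to 0.0854). Both were lost when the spike-in batch was a block (-0.47, adjusted p = 0.117, and 0.64, adjusted p = 0.319) and with all 12 arrays (-0.47, adjusted p = 0.285, and 0.62, adjusted p = 0.0713).

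Foxo1, a transcription factor that activates Rag and Il7r genes in B cell precursors, measured 8.21, 8.16 and 8.10 in INV16 replicates 1 to 3. In ACD mutant arrays it measured 8.59, 8.63 and 8.43, and in MIB control 8.17, 8.05, 7.85, 8.05 and 8.32. The ACD mutant arrays were the highest, 0.46 above MIB control (SE 0.11, adjusted p = 0.0538), and INV16 lay 0.39 below the ACD mutant (adjusted p = 0.111), neither past the test. Without MIB control replicate 7 the ACD mutant difference was 0.52 (adjusted p = 0.0234), a fit that leaves replicate 6 as the only MIB control array of batch B. With all 12 arrays that difference was 0.46 (adjusted p = 0.432). The probe sets disagreed, since for 2 others INV16 was 0.56 and 0.25 above the ACD mutant. Bcl11a, a zinc finger factor needed for B cell development, differed by 0.45 between ACD mutant and MIB control (adjusted p = 0.125, 0.0343 without MIB control replicate 7, and 0.789 with all 12 arrays). It measured 10.56 on INV16 replicate 4, above the 9.32 to 10.18 of the other arrays.

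B cell genes mostly kept to low and even values. Ebf1, the factor that sets B cell fate, lay below the filter in all 5 of its probe sets, and the one used measured 4.41, 4.04 and 4.21 in INV16 replicates 1 to 3, against 4.27, 4.14 and 4.07 in ACD mutant arrays and 3.87 to 4.18 in MIB control. Its successor Pax5 measured 5.44 to 5.83 in INV16, against 5.77 to 6.03 in ACD mutant arrays and 5.61 to 5.99 in MIB control. The surrogate light chain genes Vpreb1 and Igll1 and the related Vpreb3 differed by -0.21, 0.09 and 0.06 between INV16 and MIB control, and Cd79a, a signalling chain of the B cell receptor, by 0.14. None of these 5 tested genes was called. Igll1 was read from an x_at set, and its at set lay below the filter, with a mean of 4.73 over the 12 arrays. Blnk, an adaptor of that receptor, and the kinase gene Blk were, like Ebf1, below the filter and not tested.

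Cd72, an inhibitory co-receptor of B cells, fell in both fusion groups. It measured 6.94, 6.65 and 7.12 in INV16 replicates 1 to 3, 6.70, 6.87 and 6.81 in ACD mutant arrays, and 7.65, 7.67, 7.15, 7.48 and 7.78 in MIB control. None of these fusion arrays reached the lowest MIB control array, replicate 5, although INV16 replicate 3 came close to it. The ACD mutant was 0.75 log2 below MIB control (SE 0.15, adjusted p = 0.036), a 1.68-fold difference, and INV16 0.64 below it (SE 0.15, adjusted p = 0.0461). INV16 and the ACD mutant differed by 0.11 (95% interval -0.24 to 0.46). The INV16 call was kept in 5 and the ACD mutant call in 15 of 22 other settings. With the batch as a block the values were -0.58 in INV16 (adjusted p = 0.11) and -0.84 in the ACD mutant (adjusted p = 0.0744), and within the batches -0.58 (adjusted p = 0.235) and -0.84 (adjusted p = 0.0502). INV16 replicate 4, at 7.26, lay within the MIB control range. The INV16 call was lost without INV16 replicate 1 or 2, without any 1 ACD mutant array, and without MIB control replicate 3, 4, 6 or 7, and the ACD mutant call without ACD mutant replicate 1 or 2 or MIB control replicate 3.

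Cd79b, the other signalling chain of the B cell receptor, measured 7.08, 7.08 and 6.82 in INV16 replicates 1 to 3. It measured 7.70, 7.81 and 7.60 in ACD mutant arrays and 7.52, 6.98, 7.68, 8.28 and 7.73 in MIB control. The INV16 arrays lay below all ACD mutant arrays (-0.71, SE 0.24, adjusted p = 0.128) and below all MIB control arrays but replicate 4 (-0.64, SE 0.21, adjusted p = 0.157), and neither difference passed. Leaving out MIB control replicate 4 gave -0.81 against MIB control (adjusted p = 0.0232), and the fit to only the INV16 and ACD mutant arrays gave -0.71 (adjusted p = 0.0142). With all 12 arrays INV16 was -1.04 against MIB control (adjusted p = 0.269) and -1.10 against the ACD mutant (adjusted p = 0.301). The MIB control arrays measured 7.52, 6.98 and 7.68 in batch A and 8.28 and 7.73 in batch B. INV16 replicates 1 to 3 lie in batch A and the ACD mutant arrays in batch B.

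Ighm, the immunoglobulin mu heavy chain gene, was read from an x_at set and was flat in it. The gene measured 7.90, 7.92 and 8.22 in INV16 replicates 1 to 3, against 7.99 to 8.05 in ACD mutant arrays and 7.85 to 8.12 in MIB control. Another of its 11 probe sets, singled out after its values were seen, measured 6.85, 8.16 and 8.50 in INV16 replicates 1 to 3, against 8.56, 7.91 and 8.28 in ACD mutant arrays and 7.86 to 8.45 in MIB control. There INV16 replicate 1 was the lowest of the 11 arrays, and INV16 replicate 4 measured 6.36. INV16 and MIB control differed by -0.43 in that set (SE 0.30, adjusted p = 0.544). A further set was also lowest of the 11 arrays on INV16 replicate 1, at 5.52, with 6.55 and 6.67 in replicates 2 and 3. It too differed by -0.43 (SE 0.26, limma adjusted p = 0.472). The remaining sets past the filter differed by -0.04 and 0.09.

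Of the T cell genes 1 of 3 tested members rose, Gata3, a factor that T cells, innate lymphoid cells and mast cells use. It measured 6.61, 5.98 and 5.63 in INV16 replicates 1 to 3, against 4.99, 5.73 and 5.42 in ACD mutant arrays and 5.16, 5.29, 5.06, 4.76 and 5.14 in MIB control. The INV16 arrays lay above all MIB control arrays and overlapped with the ACD mutant arrays. INV16 was 0.99 log2 above MIB control (SE 0.21, adjusted p = 0.0344), a 1.99-fold rise from a low level, and 0.69 above the ACD mutant (adjusted p = 0.135). The call was kept without 5 of 11 arrays in turn and lost without INV16 replicate 1 (0.72, adjusted p = 0.187) or 2 (1.04, adjusted p = 0.093), ACD mutant replicate 3 (adjusted p = 0.0551), or MIB control replicate 5 (adjusted p = 0.0754), 6 (adjusted p = 0.0684) or 7 (adjusted p = 0.0527). Within batch A and with a block for batch the difference was 0.90 (adjusted p = 0.15 and 0.0905). On INV16 replicate 4 Gata3 measured 8.49, and with that array the difference was 1.59 (SE 0.46, adjusted p = 0.249).

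The other T cell genes were low or even. The receptor chain genes Cd3g and Cd3d and the Wnt pathway factor Lef1 lay below the filter. Cd3e measured 6.79 to 7.08 in INV16, against 6.80 to 6.96 in ACD mutant arrays and 6.72 to 6.92 in MIB control, and Bcl11b, which fixes T cell commitment, 5.40 to 5.65 against 5.18 to 5.28 and 5.11 to 5.61. Summed over 19 other T lineage genes, of which 7 lay below the filter, the linear signal was 1920 to 2070 in INV16, 2010 to 2090 in ACD mutant arrays and 1650 to 2370 in MIB control, and limma called 0 of 12 in each comparison (2, 1 and 1 at an unadjusted p under 0.05). The summed signal of 11 mast cell and basophil genes was 15300 to 16400 in INV16, 19400 to 19700 in ACD mutant arrays and 13800 to 20000 in MIB control, with 10 of 11 past the filter and Mcpt4 below it, and the INV16 arrays lay within the MIB control range. On INV16 replicate 4, where Gata3 was highest, that list summed to 87700; its part in the Gata3 value was not tested. In the list Hdc, which makes histamine, was higher in ACD mutant than MIB control arrays (1.56, SE 0.23, limma adjusted p = 0.015). Cpa3 (-1.45, adjusted p = 0.0379) and Ms4a2 (-2.01, adjusted p = 0.0418), a mast cell protease and an IgE receptor chain, were lower in INV16 than in ACD mutant arrays. With a block for batch these 3 calls were lost (adjusted p = 0.0695, 0.425 and 0.495).

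Of the natural killer and cytotoxic genes 1 of 4 tested members fell, Nkg7. Nkg7, a granule protein of cytotoxic cells, measured 10.05, 9.90 and 9.91 in INV16 replicates 1 to 3, against 10.01, 10.19 and 10.17 in ACD mutant arrays and 10.31, 10.66, 10.90, 10.89 and 10.64 in MIB control. All arrays of both fusion groups lay below all MIB control arrays. INV16 was 0.73 log2 below MIB control (SE 0.13, adjusted p = 0.015), a 1.65-fold difference, and the ACD mutant was 0.56 below it (SE 0.13, adjusted p = 0.0504), which did not pass. INV16 and the ACD mutant differed by -0.17 (95% interval -0.48 to 0.14). The INV16 call was kept in 17 of 22 other settings, among them the batch as a block (-0.67, adjusted p = 0.0481). It was lost with all 12 arrays (-1.58, adjusted p = 0.299), with the replicate block (-0.36, adjusted p = 0.543), within batch A (-0.67, adjusted p = 0.14) and without INV16 replicate 1 (-0.77, adjusted p = 0.0709) or 2 (-0.70, adjusted p = 0.0705). The ACD mutant difference passed without MIB control replicate 3 (-0.65, adjusted p = 0.0244) or 7 (-0.57, adjusted p = 0.0417).

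Gzmb, a granule protease, varied most among the controls. It measured 5.72, 5.71 and 6.01 in INV16 replicates 1 to 3 and 6.48, 6.99 and 6.40 in ACD mutant arrays, and 5.77, 8.25, 6.54, 6.41 and 9.70 in MIB control. MIB control replicates 4 and 7 were the highest of all arrays, and the INV16 difference of -1.52 had an SE of 0.66 (adjusted p = 0.288). Il12rb1, a chain of the interleukin 12 receptor, was 0.60 lower in INV16 than in MIB control (5.71 to 5.93 against 6.06 to 6.80, adjusted p = 0.0758). Leaving out MIB control replicate 4 gave -0.70 (adjusted p = 0.0213), and all 12 arrays gave -0.71 (adjusted p = 0.16). Gzma measured 5.16 to 5.62 on the 11 arrays, and Klrd1, a subunit of natural killer receptors, lay below the filter.

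Summed over 18 other natural killer and innate lymphoid genes, of which 9 lay below the filter, the linear signal was 1880 to 2230 in INV16, 1970 to 2080 in ACD mutant arrays and 1770 to 2040 in MIB control, and limma called 0 of 9 in each comparison (3, 0 and 0 at an unadjusted p under 0.05). Nkg7 fell while the neutrophil and monocyte genes summed to 26400 to 37200 in INV16, 29800 to 38300 in ACD mutant arrays and 27900 to 49700 in MIB control, with 10 of 11 past the filter and Ltf below it. Their mean log2 value was 8.34, 8.37 and 8.86 in INV16 replicates 1 to 3. It was 9.12, 8.83 and 9.03 in ACD mutant arrays and 8.69 to 10.16 in MIB control. INV16 replicates 1 and 2, the highest in Dntt, thus lay below all other arrays in this mean except INV16 replicate 4, at 7.14. Against MIB control these genes had a median of -0.38 log2 in INV16 and -0.02 in the ACD mutant. In each, 3 of 10 had an unadjusted limma p under 0.05. Their part in the result was not tested. In that list S100a8, a calcium-binding protein of neutrophils, fell in INV16 against MIB control (5.27 ± 0.23, n = 3, against 8.35 ± 1.30, n = 5, SD; -3.08, SE 0.55, limma adjusted p = 0.0144), a call lost with all 12 arrays (adjusted p = 0.0585).

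**Figure D3:**
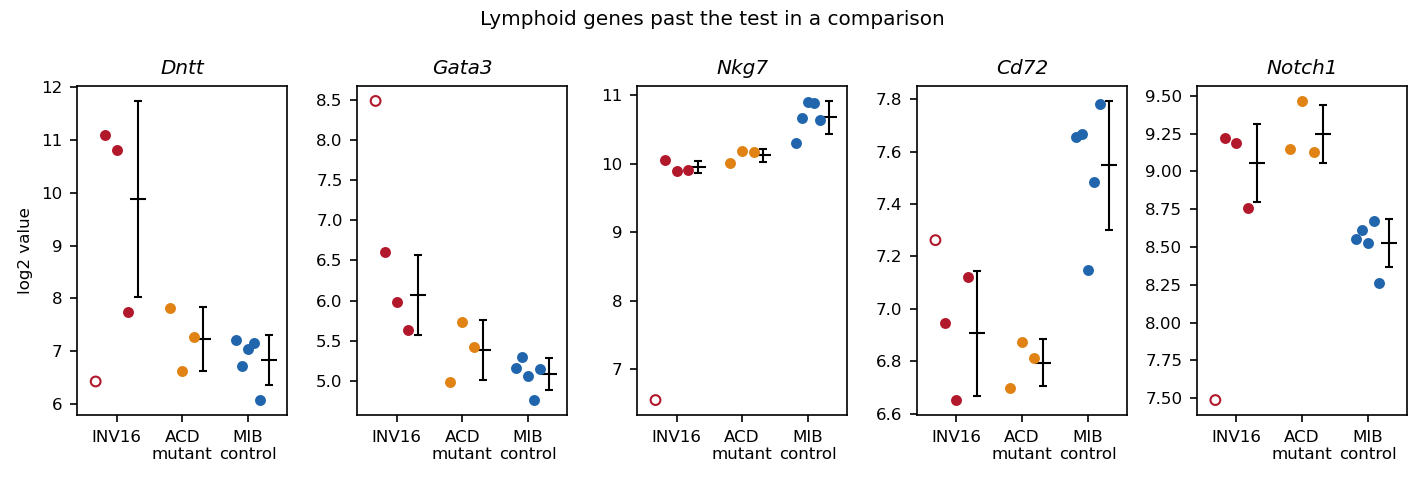
Log2 values of the 5 lymphoid genes called in a comparison, by group, with each filled point an array, the open point INV16 replicate 4, and bars the mean ± SD of the filled points. Axes differ between panels and do not start at 0. Among the filled points Nkg7, Cd72 and Notch1 separate both fusion groups from MIB control. The open point lies inside the MIB control range for Cd72 and below it for Notch1, and Dntt is high on only 2 of 3 INV16 arrays.

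The sequences before the start of the 4 called genes with the smallest p-values are shown because RUNX proteins, which CBFB holds to DNA, bind a short core sequence. Each is the 250 bases before the gene start from RefSeq (GRCm38.p6), printed 5' to 3' on the strand of the gene, with capitals marking a RUNX core, TGTGGT or TGCGGT on either strand.
Nkg7, chr7:43436888-43437137, plus strand: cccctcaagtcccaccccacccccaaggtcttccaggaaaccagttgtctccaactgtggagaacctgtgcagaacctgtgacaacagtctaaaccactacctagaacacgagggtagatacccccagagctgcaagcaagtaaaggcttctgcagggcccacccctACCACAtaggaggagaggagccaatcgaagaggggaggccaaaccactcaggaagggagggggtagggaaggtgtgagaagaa
Notch1, chr2:26503823-26504072, minus strand: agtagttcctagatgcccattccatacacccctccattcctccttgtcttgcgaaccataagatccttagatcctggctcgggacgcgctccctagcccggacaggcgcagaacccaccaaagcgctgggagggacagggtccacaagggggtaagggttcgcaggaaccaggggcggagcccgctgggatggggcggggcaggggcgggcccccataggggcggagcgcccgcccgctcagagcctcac
Cd72, chr4:43454627-43454876, minus strand: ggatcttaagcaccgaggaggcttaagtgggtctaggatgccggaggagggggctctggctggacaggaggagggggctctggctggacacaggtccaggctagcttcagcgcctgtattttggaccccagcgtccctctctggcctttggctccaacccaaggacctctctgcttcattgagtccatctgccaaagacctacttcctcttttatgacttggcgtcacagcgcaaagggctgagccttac
Dntt, chr19:41029025-41029274, plus strand: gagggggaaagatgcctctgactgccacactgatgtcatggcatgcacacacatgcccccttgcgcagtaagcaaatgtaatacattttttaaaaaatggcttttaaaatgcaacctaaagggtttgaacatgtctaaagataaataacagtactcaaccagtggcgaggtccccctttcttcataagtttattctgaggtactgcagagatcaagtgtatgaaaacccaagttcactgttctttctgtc
Nkg7 held 1 core, beginning 83 bases before its start, and Notch1, Cd72 and Dntt held 0 in this window. Of the 39 genes 32 had such a window, 43 windows in all, and 9 of the 43 (20.9%) held a core, against 18.6% of 32851 windows of all genes. Rag1 and Gzmb held 2 cores each. The E box CANNTG, bound by E proteins such as E2A, was in 72.1% of the 43 windows and in 66.2% of all, and the Dntt window held 3. A match is a description of the letters and does not show binding.

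Genes around the lymphoid programme gave further values. Among 21 tested E protein, Id protein and related factors, Tcf4, an E protein of dendritic and B cells, rose in INV16 against MIB control (10.42 ± 0.19, n = 3, against 9.67 ± 0.19, n = 5, SD; 0.75, SE 0.14, limma adjusted p = 0.0169). On INV16 replicate 4 it measured 4.28. Irf8, a factor of dendritic, monocyte and B cells, was lower in INV16 than in the ACD mutant (6.77 ± 0.32 against 8.27 ± 0.23, SD, n = 3 each; -1.50, SE 0.30, limma adjusted p = 0.0259). With a block for batch neither was called (Tcf4 0.65, adjusted p = 0.0524, and Irf8 -1.17, adjusted p = 0.354). The list's median was 0.27 for INV16 and 0.16 for the ACD mutant, each against MIB control, with 1 and 0 of 21 called (8 and 2 at an unadjusted p under 0.05). Irf8 and Tcf4 are shared with dendritic cells, whose 8 named marker genes summed to 562 to 595 in INV16, 515 to 850 in ACD mutant arrays and 492 to 733 in MIB control, with Ccr7, Xcr1 and Pacsin1 below the filter and 0 of 5 called by limma in each comparison (0, 1 and 0 at an unadjusted p under 0.05). The groups overlapped in that sum.

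Among 13 tested genes of common gamma chain and interleukin 7 receptor signalling, 2 fell in INV16 against MIB control and 0 of 13 were called in the ACD mutant (1 at an unadjusted p under 0.05). Il4ra, the interleukin 4 receptor chain, fell by 1.34 log2 (7.40 ± 0.28, n = 3, against 8.74 ± 0.38, n = 5, SD; SE 0.20, limma adjusted p = 0.00634), and INV16 against ACD mutant (8.64 ± 0.23, n = 3) gave -1.24 (SE 0.22, adjusted p = 0.0193). Bcl2, the survival protein that interleukin 7 sustains in lymphocytes, fell by 0.70 (9.70 ± 0.18, n = 3, against 10.40 ± 0.24, n = 5, SD; SE 0.14, limma adjusted p = 0.0252). Among 10 tested B lineage genes outside the members, Foxp1, a factor of early B cells, rose in ACD mutant arrays (10.27 ± 0.30, n = 3, against 9.64 ± 0.14 in MIB control, n = 5, SD; 0.63, SE 0.14, limma adjusted p = 0.0492), and the kinase gene Syk was lower in INV16 than in the ACD mutant (-1.05, SE 0.19, limma adjusted p = 0.0167). Of 18 B lineage genes named on the array 8 lay below the filter, among them Ms4a1 and Pou2af1. All the calls of this paragraph and of Tcf4 and Irf8 were lost with all 12 arrays, at an adjusted p of 0.0931 to 0.756. With a block for batch the INV16 calls against MIB control were kept for Il4ra (-1.18, adjusted p = 0.0221) and Bcl2 (-0.88, adjusted p = 0.00488). Those of Foxp1 (0.61, adjusted p = 0.139), Syk (-0.48, adjusted p = 0.349) and Il4ra between INV16 and ACD mutant (-0.86, adjusted p = 0.336) were lost.

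**Figure D4:**
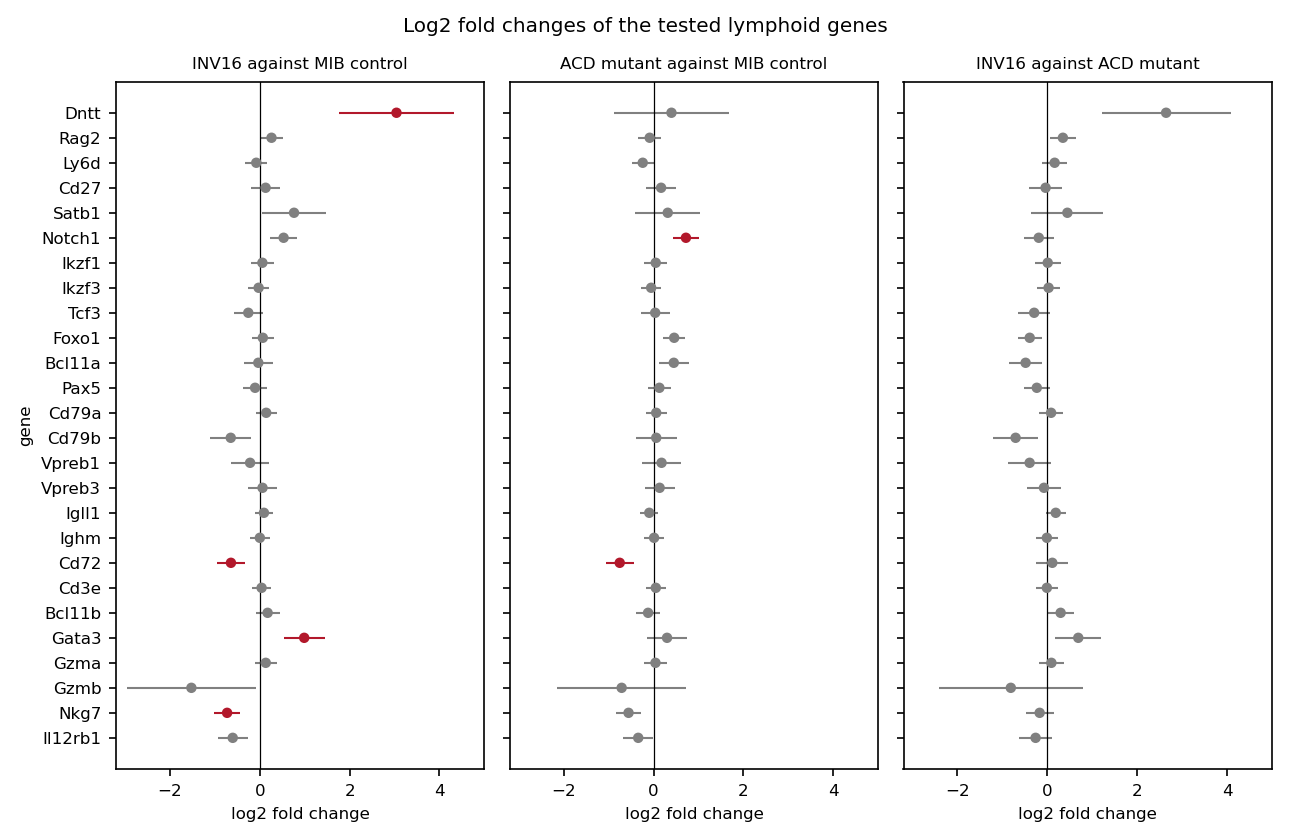
Log2 fold changes of the 26 tested lymphoid genes in the 3 comparisons, with 95% intervals and the called genes in red. Most points lie near 0, and Dntt lies farthest to the right in both comparisons of INV16.

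INV16 replicate 4 departed from the other arrays in single lymphoid genes and in both directions. Cd27 measured 5.08 there, against 8.61 to 9.25 on the other 11 arrays. Satb1 measured 4.52 against 7.51 to 9.76, Nkg7 6.55 against 9.90 to 10.90, and Cd79b 5.40 against 6.82 to 8.28. Blnk, the adaptor of the B cell receptor, measured 7.99 against 4.20 to 5.11, and Gata3 8.49 against 4.76 to 6.61. These 4 lower and 2 higher genes are those of the 36 that lay more than 1 log2 outside the range of the other arrays. Of all 18193 genes, 9.95% lay that far below and 4.01% that far above on this array. The members' shares, 4 and 2 of 36, were near these. Dntt (6.43) and Foxo1 (8.19) lay inside the range of the others, and Ikzf1 (11.54) lay 0.08 log2 below it.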

How the data were processed

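The deposited table holds 45101 probe sets as log2 values, 1 column per array, summarised and scaled by the authors by a method not given in the sources used here; the base was inferred from the range of values. Array medians lay between 5.62 and 5.79. Dim values are compressed, so their fold changes are understated, and precision is limited by the number of arrays.

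Gene names came from GEO's platform annotation, where 34945 probe sets had 1 symbol, 932 had several, and the 64 control sets were left out. All 36 members named matched the RefSeq gene table by Entrez identifier, with 0 changed symbols. Columns left unused numbered 0. The design was limma (version 3.58.1, R version 4.3.3) with a mean per group on 11 arrays, INV16 replicate 4 apart, moderated variances (residual df 8, prior df 5.04), two-sided tests, and Benjamini-Hochberg adjustment over 12918 genes, called under 0.05. Each replicate was a separate sort and transduction, per the design text, and p-values measure the spread between these. The script was tested on simulated data. Replicate numbers were not treated as pairs. Same-numbered INV16 and ACD mutant arrays correlated at -0.16, -0.18 and -0.31 in their deviations from group means. MIB control replicate 3 correlated at -0.33 with INV16 replicate 3 and at 0.09 with ACD mutant replicate 3. Deviations within such small groups cannot exclude that same-numbered arrays shared a day or a sort. Alternatives were all 12 arrays, each array left out, other filters, quantile normalisation, only the groups compared, the spike-in batch, the replicate block, averaged probe sets and another variance prior.

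The members, lists and tests were chosen with earlier results of these data known. Values per array are given for members called, for the 3 smallest p-values per comparison, for a fixed set of 10 members (Il7r, Dntt, Rag1, Ebf1, Ikzf1, Tcf7, Gata3, Cd27, Il2rg and Gzmb), and for members far out on INV16 replicate 4; of other lists, called genes are named.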

Additional observations from a re-analysis of the deposited data

Results flagged for a closer look

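In groups of 4 or 5 arrays, the gap of the most extreme array to its neighbour was compared with the range of the group in 72 sets of values, and 11 stood out; chance marks about 1 set in 20. On INV16 replicate 4, 5 genes stood out from the other INV16 arrays: Cd27 at 5.08 against 8.73 to 9.25, Cd79b at 5.40 against 6.82 to 7.08, Blnk at 7.99 against 4.69 to 5.11, Gzmb at 7.61 against 5.71 to 6.01, and Nkg7 at 6.55 against 9.90 to 10.05. Gzma on INV16 replicate 2 was 5.32 against 5.57 to 5.62. In MIB control, replicate 3 was lowest in Il7r (3.86 against 4.46 to 4.60), Ikzf3 (5.56 against 5.69 to 5.72), Blnk (4.20 against 4.67 to 4.81) and Lef1 (4.46 against 4.68 to 4.76), and replicate 5 was highest in Rag1 (3.55 against 3.30 to 3.34).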

How the results depend on the processing

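In INV16 against MIB control 4 members were called; the count was 0 with all 12 arrays, within spike-in batch A and with the replicate block, 1 with the batch as a block and with only the 2 groups compared, and 0 to 5 when each of 11 arrays was left out (0 without INV16 replicate 1 or 2). In the ACD mutant against MIB control it was 2, but 0 with all 12 arrays, with the batch as a block, within batch B and with the replicate block, 1 with the mean of all probe sets of a gene, 4 with the stricter filter (60th percentile, where Foxo1 and Nkg7 joined), and 0 to 5 without single arrays (0 without ACD mutant replicate 1 or 2, 5 without MIB control replicate 7). In INV16 against the ACD mutant it was 0, but 3 with only the 2 groups compared (Bcl11a, Cd79b and Gzmb), 2 with the replicate block (Dntt, adjusted p = 0.0444, and Cd79b, adjusted p = 0.0329), and 0 or 1 without single arrays. Whether the replicate number pairs arrays could not be decided here. In that block MIB control enters only through its array numbered 3. Its differences also draw on the INV16 and ACD mutant arrays numbered 1 to 3. With the replicate block the counts over all genes were 1, 24 and 380, against 219, 220 and 267 without it. Over all genes the calls ranged from 29 to 332, 3 to 591 and 36 to 505 when 1 array was left out; 93, 72 and 840 were called with only the 2 groups compared, 148, 20 and 0 with the batch as a block, 30 within batch A and 42 within batch B, 20, 0 and 5 with all 12 arrays, and 141 in the last comparison with averaged probe sets. Testing each probe set alone, chosen after seeing the data, gave 3, 2 and 0 members when each gene was read from its brightest set, which leaves out the second Ikzf1 set; the batch block for genes of other lists and the settings of that Ikzf1 set were also chosen after seeing the data, and the other alternatives were planned. No called member changed sign in any setting run. Of 1526 values of uncalled members under other settings, 1508 stayed uncalled and 18 were called, 0 of them in the opposite direction. INV16 and the ACD mutant share no batch, so the within-batch setting gave no value there. The cause of these changes was not tested.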
